A study of Mus musculus with 4 samples.

Results

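Itgax and 9 other integrin chains of myeloid cells (Itgam, Itgal, Itgb2, Itgb5, Itgav, Itga6, Itgb1, Itga9 and Itgb3) were followed in microglia from a mouse model of Alzheimer's disease, in libraries labelled as wild type or knockout for the gene asrij. These 10 genes were taken by symbol from the 49993 genes with a count, and all 10 passed the filter on low counts. They were chosen by earlier results of the same comparison between genotypes. Their differences between genotypes are therefore a description, and no test of them is given.

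RNA was sequenced in bulk from brain cells of mice aged 10 months, sorted magnetically (MACS) for CD11b and labelled as microglia. Every mouse carried APP/PS1, transgenes that drive amyloid deposition in the brain. The group AD (genotype APP/PS1+ asrij+/+, n = 2 libraries) is labelled as carrying asrij, and the group AD/KO (APP/PS1+ asrij-/-, n = 2 libraries) as a constitutive deletion, which is not restricted to microglia. No group without amyloid was analysed here, and the labels do not say how many animals went into a library, so the spread between libraries may be technical. With 2 libraries against 2, an exact permutation test of a single value cannot give a two-sided p below 0.333.

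Integrins are adhesion receptors made of 1 alpha and 1 beta chain, which bind matrix proteins, complement fragments or proteins on other cells and link them to the actin skeleton. The leukocyte beta 2 chain (CD18, encoded by Itgb2) pairs with the alpha chains encoded by Itgal (LFA-1, which binds ICAM proteins), Itgam (CD11b, the alpha chain of complement receptor 3), Itgax (CD11c, the alpha chain of complement receptor 4) and Itgad. In mouse brain, Itgax is low in resting microglia and is a marker of the microglia that gather at amyloid plaques. CD11b is also carried by neutrophils and monocytes and was the protein used to isolate the cells.

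The libraries held from 13102622 to 19810076 reads. Asrij is the gene Ociad1. It had 691 and 1032 reads in AD (replicates 1 and 2, the order used throughout) and 746 and 592 reads in AD/KO, so it was lower in AD/KO (50.2 and 63.4 against 38.9 and 32.1 CPM, TMM-scaled read counts relative to library size) but not lost, with a log2 fold change of −0.68 (SE 0.29, adjusted p = 0.680, edgeR quasi-likelihood). AD/KO therefore means the libraries so labelled. A list of 25 microglia markers, called the homeostatic list below, included Trem2, Tyrobp, Gpr84, Sparc and Cst3. It summed to 29699 and 21824 CPM in AD and to 31341 and 11012 CPM in AD/KO, with all 25 markers read in each of the 4 libraries. Its genes did not move alike. In AD/KO replicate 2, P2ry12 stood at 348 CPM (1037 to 1336 CPM in the others) and Sparc at 1475 CPM (1195 to 1869 CPM in the others). Astrocyte markers (10 genes) summed to 1974 and 4682 CPM in AD and to 4860 and 12413 CPM in AD/KO. Neutrophil markers (10 genes) summed to 4737 CPM in AD replicate 2 and to between 381 and 576 CPM in the other libraries. AD replicate 2 also had 1391 reads of Xist, against 3 to 15 in the others. AD/KO replicate 2 and AD replicate 2 thus stood apart in some of these values. Over all genes tested, AD replicate 1 was the lowest library for 37.5% and the highest for 36.3%. AD replicate 2 was the lowest for 10.0% and the highest for 14.2%. The part of each library in the results below is given by leaving it out.

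Itgax was the integrin chain with the widest gap between the groups. It had 942 and 1140 reads in AD and 243 and 84 reads in AD/KO. Scaled to library size, this was 68.4 and 70.1 CPM in AD, 12.7 CPM in AD/KO replicate 1 and 4.56 CPM in AD/KO replicate 2. The AD libraries were nearly equal, and both AD/KO libraries lay far below them. The 95% counting interval (exact Poisson, counting error only) of the higher AD/KO library ended at 14.4 CPM and that of the lower AD library began at 64.1 CPM. The means of AD, 69.2 ± 1.20 CPM, and of AD/KO, 8.61 ± 5.73 CPM (SD, n = 2 each), were 8.04-fold apart, and the fitted log2 fold change was −3.0. Of 13769 genes with a mean of at least 5 CPM, 16 (Itgax among them) had a fitted log2 fold change this low. Without AD/KO replicate 1 the log2 fold change of Itgax was −3.87, and without AD/KO replicate 2 it was −2.44. In bulk samples, fewer cells that express a gene and less RNA per cell cannot be told apart.

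The other chains of the beta 2 family differed by less. Itgam stood at 1313 and 848 CPM in AD and at 1012 and 374 CPM in AD/KO. AD/KO replicate 1 lay between the AD libraries, so the groups overlapped, and the means of 1081 ± 328 and 693 ± 451 CPM (SD, n = 2 each) were 1.56-fold apart. Itgb2, the shared beta chain, stood at 406 and 401 CPM in AD and at 325 and 122 CPM in AD/KO. Both AD/KO libraries lay below AD, replicate 1 by a small margin, and the means of 403 ± 3.57 and 223 ± 143 CPM (SD, n = 2 each) were 1.81-fold apart. Itgal stood at 31.5 and 65.8 CPM in AD and at 16.2 and 13.3 CPM in AD/KO. Its AD/KO libraries were close together and below both AD libraries, with means of 48.6 ± 24.2 and 14.8 ± 2.03 CPM (SD, n = 2 each), 3.29-fold apart. The fitted log2 fold changes were −0.64 for Itgam, −0.85 for Itgb2 and −1.72 for Itgal.

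Itgal is carried by most leukocytes, and its highest value came from AD replicate 2, the library with the most neutrophil marker reads. Without that library its log2 fold change was −1.03. Monocyte markers (10 genes) summed to 272 and 685 CPM in AD and to 118 and 174 CPM in AD/KO. Of the sum in AD replicate 2, 294 CPM was Chil3, which stood at 10.6 to 25.7 CPM in the other libraries and overlapped between the groups. For 8 of the 10 the groups did not overlap, with AD/KO the lower, as for 21.7% of all genes tested. T and NK cell markers were near the limit of detection, at 1.89 to 6.45 CPM summed over 10 genes, with Trac listed at 0 in every library. The part of these cells in the Itgal values was not tested. Dendritic cells also carry Itgax. Their 10 markers summed to 45.8 and 46.9 CPM in AD and to 41.9 and 58.6 CPM in AD/KO. For 5 of the 10 the AD/KO libraries lay below AD without overlap (21.7% of all genes), among them Clec9a (28 and 34 reads in AD, 12 and 10 in AD/KO) and Cd209a (64 and 72 reads, then 31 and 19). For 1, Flt3, they lay above, as for 20.3% of all genes (90 and 120 reads, then 195 and 415), and Zbtb46 overlapped (188 and 349 reads, then 340 and 495). B cell markers (10 genes, with Ighm listed at 0) summed to 45.3 and 43.9 CPM in AD and to 23.5 and 14.1 CPM in AD/KO. Of the 10, 7 lay below AD without overlap (21.7% of all genes), among them Fcrla with 8, 11, 6 and 3 reads. Border-associated macrophage markers (10 genes) summed to 780 and 493 CPM in AD and to 797 and 298 CPM in AD/KO. Most of that sum was Stab1 (679, 427, 739 and 251 CPM), and 6 of the 10 lay below AD without overlap (21.7% of all genes). The part of monocytes, dendritic cells, B cells and border-associated macrophages in the Itgax values was not tested. Xcr1, Ccl22 and Ccr7 had at most 5 reads in any library. Xcr1 and Ccl22 were nevertheless among the 5 dendritic cell markers counted as lower. Only 7 of the 10 dendritic cell markers and 8 of the 10 B cell markers passed the filter on low counts, which all genes behind the 21.7% did.

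**Figure D1:**
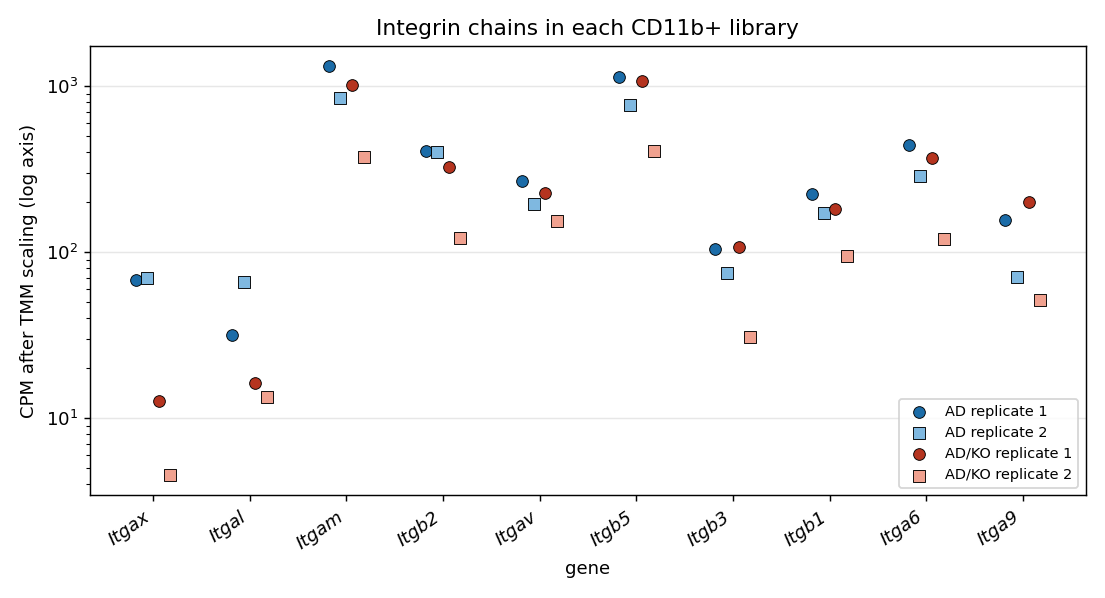
CPM (log axis) of the 10 integrin chains in each of the 4 libraries, with AD in blue and AD/KO in red, replicate 1 as circles and replicate 2 as squares. Itgax stands near 70.1 CPM in both AD libraries and at 12.7 and 4.56 CPM in AD/KO, while AD/KO replicate 2 is the lowest library for all 10 genes.

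AD/KO replicate 2 was the lowest of the 4 libraries for all 10 chains. Over all genes tested it was the lowest for 42.4% and the highest for 38.5%, against 37.5% and 36.3% for AD replicate 1. AD/KO replicate 2 also had the lowest sum of homeostatic microglia markers. Reads of each chain were therefore also set against the reads of Itgam in the same library, a ratio that does not depend on library size. Itgax had 5.21 and 8.26 reads per 100 Itgam reads in AD and 1.25 and 1.22 in AD/KO. On this scale the AD/KO libraries were nearly the same, although they differed 2.78-fold in Itgax CPM and 2.70-fold in Itgam CPM. The group means were 6.73 ± 2.16 and 1.23 ± 0.0244 reads per 100 Itgam reads (SD, n = 2 each), 5.45-fold apart. Against Itgb2 in place of Itgam the ratio was 16.8 and 17.5 in AD and 3.90 and 3.74 in AD/KO, 4.49-fold apart. Against the summed homeostatic list the gap was 6.74-fold.

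As a share of the reads of the 4 alpha chains that pair with beta 2, Itgax took 4.84% (95% Wilson interval 4.54 to 5.15%) and 7.11% (6.73 to 7.52%) in AD. In AD/KO it took 1.22% (1.07 to 1.38%) and 1.16% (0.938 to 1.43%). The intervals of the AD/KO libraries overlapped each other and lay below those of AD. Itgam made up most of the rest, with 92.9% and 86.1% in AD and 97.2% and 95.3% in AD/KO. Itgal took 2.23% and 6.68% in AD and 1.56% and 3.40% in AD/KO, so its groups overlapped on this scale. Itgad had only 8 to 13 reads in a library.

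Relative to Itgam, 6 of the other 8 chains overlapped between the groups and 2 were higher in AD/KO. Itgal (2.40 and 7.75 reads per 100 Itgam reads in AD, 1.60 and 3.57 in AD/KO) and Itgb2 (30.9 and 47.2, then 32.1 and 32.5) overlapped between the groups. Itga6 had 33.8, 34.0, 36.6 and 31.9 reads per 100 Itgam reads, the most even chain of the 9. Itgb1 had 17.1 and 20.3 in AD and 18 and 25.4 in AD/KO and Itgb3 had 7.91, 8.88, 10.6 and 8.25, and both overlapped. Itgb5 had 86.3 and 90.3 in AD and 106 and 108 in AD/KO, so it was higher in both AD/KO libraries, by 1.21-fold in the means. Itga9 was also higher in both, with 11.9 and 8.39 in AD and 19.9 and 13.8 in AD/KO. Itgax was the 1 chain of 9 that lay below AD in both AD/KO libraries on this scale, where 5.93% of all genes tested did, and Itgb5 and Itga9 were the 2 that lay above, where 20.8% of all genes did. Since the comparison chose the genes, nothing is read from these counts.

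**Figure D2:**
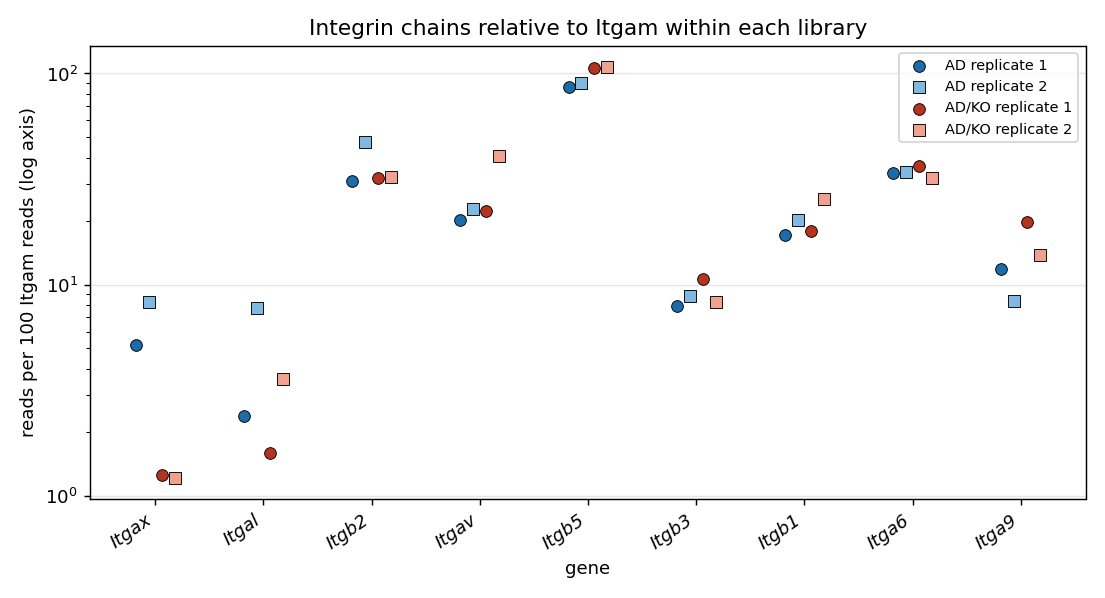
Reads per 100 Itgam reads (log axis) for the 9 other chains in each library, with AD in blue and AD/KO in red. Itgax falls into a pair of values at 5.21 and 8.26 in AD and a pair at 1.25 and 1.22 in AD/KO, while Itgb2 and Itga6 overlap between the groups.

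Itgam, Itgax and Itgad lie in a row on the plus strand of chromosome 7, in that order, and Itgal lies on the same chromosome. On GRCm38.p6, Itgam (gene ID 16409) spans 128062640 to 128118491, Itgax (gene ID 16411) spans 128129526 to 128150657 and Itgad (gene ID 381924) spans 128173933 to 128205504. Itgam and Itgax are 11034 bases apart and Itgax and Itgad 23275. Itgal (gene ID 16408) spans 127296139 to 127335137, with 727502 bases between it and Itgam. The upstream sequences of Itgam and Itgax are shown because these neighbours share a beta chain and a locus but differed in how far apart the groups were. Each window runs from 250 to 25 bases before the start in the RefSeq promoter table, which for Itgax lies a little inside the gene span above (226 bases, plus strand, GRCm38.p6, from RefSeq), at chr7:128062390-128062615 for Itgam and chr7:128129300-128129525 for Itgax, and capitals mark the motif matches described next.
Itgam: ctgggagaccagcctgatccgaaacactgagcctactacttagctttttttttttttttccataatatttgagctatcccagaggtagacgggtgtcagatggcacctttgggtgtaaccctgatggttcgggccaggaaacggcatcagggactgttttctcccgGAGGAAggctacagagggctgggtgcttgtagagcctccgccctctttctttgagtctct
Itgax: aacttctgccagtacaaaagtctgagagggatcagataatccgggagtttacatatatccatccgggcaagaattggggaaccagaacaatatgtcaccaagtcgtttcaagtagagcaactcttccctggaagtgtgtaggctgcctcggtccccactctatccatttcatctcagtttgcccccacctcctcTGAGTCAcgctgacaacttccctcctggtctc

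Both strands were searched for 4 motifs: GAGGAA (a core bound by ETS factors such as PU.1), TGAGTCA (AP-1, whose reverse complement TGACTCA is the same site), TGTGGT (a RUNX core) and CACGTG (the E-box of TFEB and MITF). Itgam held GAGGAA 84 bases before its start, and Itgax held TGAGTCA 56 bases before its start. No other match was found in these windows. Among 32851 windows of the same length and position, GAGGAA was present in 21.0%, TGAGTCA or TGACTCA in 4.11%, TGTGGT in 13% and CACGTG in 5.2%. A match is a description of the letters, not evidence of a bound factor. Promoter sequences matched 6 of the 10 chains.

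Within 100 kb on either side of Itgax, 7 other genes were tested, Itgam among them. The pseudogene Gm45700, which lies between Itgam and Itgax, stood at 3.70 and 3.26 CPM in AD and at 2.76 and 0.868 CPM in AD/KO, and Itgad stood at 0.798 and 0.799 CPM and at 0.469 and 0.434 CPM. Their log2 fold changes were −0.93 and −0.81. Cox6a2, a muscle-type subunit of cytochrome c oxidase, stood at 2.54 and 2.09 CPM and at 1.56 and 1.90 CPM, a log2 fold change of −0.42. In these 3 of the 7 genes the groups did not overlap, with AD/KO the lower (21.7% of all genes), while the other 4 overlapped. 9130023H24Rik had a log2 fold change of −0.40 and Armc5 of −0.07. Tgfb1i1, which encodes a focal adhesion adaptor, had 0.64. None of these passed an adjusted p of 0.05 (edgeR quasi-likelihood, Benjamini-Hochberg), where 0.0% of all genes did.

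The alpha V chain, encoded by Itgav (gene ID 16410, chromosome 2, 83722303 to 83806917), pairs with several beta chains and binds vitronectin, osteopontin and latent TGF-beta. It stood at 267 and 194 CPM in AD and at 226 and 153 CPM in AD/KO, and the groups overlapped. Its partner Itgb5 (gene ID 16419, chromosome 16, 33829665 to 33949338) is strongly expressed by homeostatic microglia. Itgb5 stood at 1133 and 766 CPM in AD and at 1073 and 404 CPM in AD/KO, so AD/KO replicate 1 lay inside the AD range. Itgb3 (gene ID 16416, chromosome 11, 104608000 to 104670476), which pairs with alpha V or with the platelet alpha IIb chain, stood at 104 and 75.4 CPM and at 107 and 30.9 CPM. AD/KO replicate 1 was here the highest library and replicate 2 the lowest. Platelet markers (10 genes) summed to 42.9 and 36.8 CPM in AD and to 43.8 and 26.5 CPM in AD/KO. For 3 of the 10 the AD/KO libraries lay below AD without overlap (21.7% of all genes), and for 1 above (20.3%). Only 7 of the 10 passed the filter on low counts, which all genes behind these shares did. Clec1b and Tubb1, counted as lower, had at most 14 reads in any library. The platelet chemokine gene Ppbp had 8 and 27 reads in AD and 2 and 3 in AD/KO. Gp5 had 5 and 8 reads, then 10 and 23. The alpha IIb gene Itga2b had 40 and 81 reads, then 75 and 96, and overlapped.

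Fitted log2 fold changes were −0.28 for Itgav, −0.36 for Itgb5 and −0.38 for Itgb3, and none of these directions held in every alternative. Without AD/KO replicate 2 they were −0.019 for Itgav, 0.19 for Itgb5 and 0.27 for Itgb3. Scaled to the homeostatic list, Itgav was 0.24. Itgav reads per 100 Itgam reads were 20.4, 22.9 and 22.3 in the first 3 libraries and 40.9 in AD/KO replicate 2, the library with the most astrocyte marker reads. The part of other brain cells in that value was not tested.

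The beta 1 chain, encoded by Itgb1 (gene ID 16412, chromosome 8, 128685654 to 128733579), has the most alpha partners of any beta chain and is made by nearly all cells. It stood at 225 and 172 CPM in AD and at 182 and 95.3 CPM in AD/KO, with replicate 1 of AD/KO between the AD libraries. Itga6 (gene ID 16403, chromosome 2, 71786886 to 71858427), a laminin receptor chain, stood at 443 and 289 CPM in AD and at 371 and 119 CPM in AD/KO. Itga9 (gene ID 104099, chromosome 9, 118606709 to 118901003), whose product binds tenascin-C, osteopontin and VCAM-1 with beta 1, stood at 156 and 71.2 CPM in AD and at 201 and 51.7 CPM in AD/KO. The AD/KO libraries of Itga9 lay on both sides of the AD range and differed 3.89-fold, the widest ratio between AD/KO replicates among the 10 chains. Its log2 fold change of 0.15 was the 1 positive value of the 10 and turned negative, to −0.24, without AD replicate 2, and to −1.09 without AD/KO replicate 1. The log2 fold changes were −0.52 for Itgb1 and −0.58 for Itga6, and Itga6 turned to 0.030 without AD/KO replicate 2.

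Levels between chains were compared per kilobase of exon (RPKM, CPM divided by exon length in kilobases). Itgb5 was the highest in each of the 4 libraries, at 319 and 216 RPKM in AD and 302 and 114 RPKM in AD/KO. Itgam was in place 2 (261, 169, 201 and 74.5 RPKM), Itgb2 in place 3 (133, 131, 106 and 39.9 RPKM) and Itgb1 in place 4 (55.1, 42.1, 44.5 and 23.4 RPKM) in each library. Within AD, neighbours in the order Itgb5, Itgam, Itgb2, Itgb1, Itga6, Itgav, Itgb3, Itga9, Itgax, Itgal had overlapping ranges for Itgb5 and Itgam, for Itgb1 and Itga6, for Itgb3 and Itga9 and for Itga9 and Itgax. The other neighbours had separate ranges. Itgax stood at 14.2 and 14.6 RPKM in AD, level with Itgb3 (17.6 and 12.8 RPKM) and Itga9 (20.3 and 9.25 RPKM), and ranked 9th and 7th of 10. In AD/KO it stood at 2.64 and 0.949 RPKM, ranked 9th and 10th, and overlapped with Itgal (2.47 and 2.03 RPKM) alone.

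Taking the 10 chains as a list, 9 had a negative log2 fold change, where 52.8% of all genes tested did, and the median was −0.55, against −0.048 over all 21439 genes tested. In 3 of the 10 (Itgax, Itgal and Itgb2) AD/KO lay below AD without overlap, where 21.7% of all genes did. In 0 of the 10 did both lie above, where 20.3% of all genes did. These counts used the comparison that chose the genes, and nothing is read from them. The median was −1.48 without AD/KO replicate 1 and −0.052 without AD/KO replicate 2, so the low median of the list rested on AD/KO replicate 2. Without AD/KO replicate 2 the same 3 chains lay below AD, against 27.8% of all genes, and without AD replicate 1 again those 3, against 29.4%. Without AD replicate 2 the number was 8, against 42.8% of all genes, and without AD/KO replicate 1 it was all 10, against 46.4%. Scaled to the homeostatic list, which moved the median of all genes to 0.54, the members' median was −0.24 and 5 chains (Itgax, Itgam, Itgb2, Itga6 and Itgb3) lay below AD, against 11.6% of all genes.

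**Figure D3:**
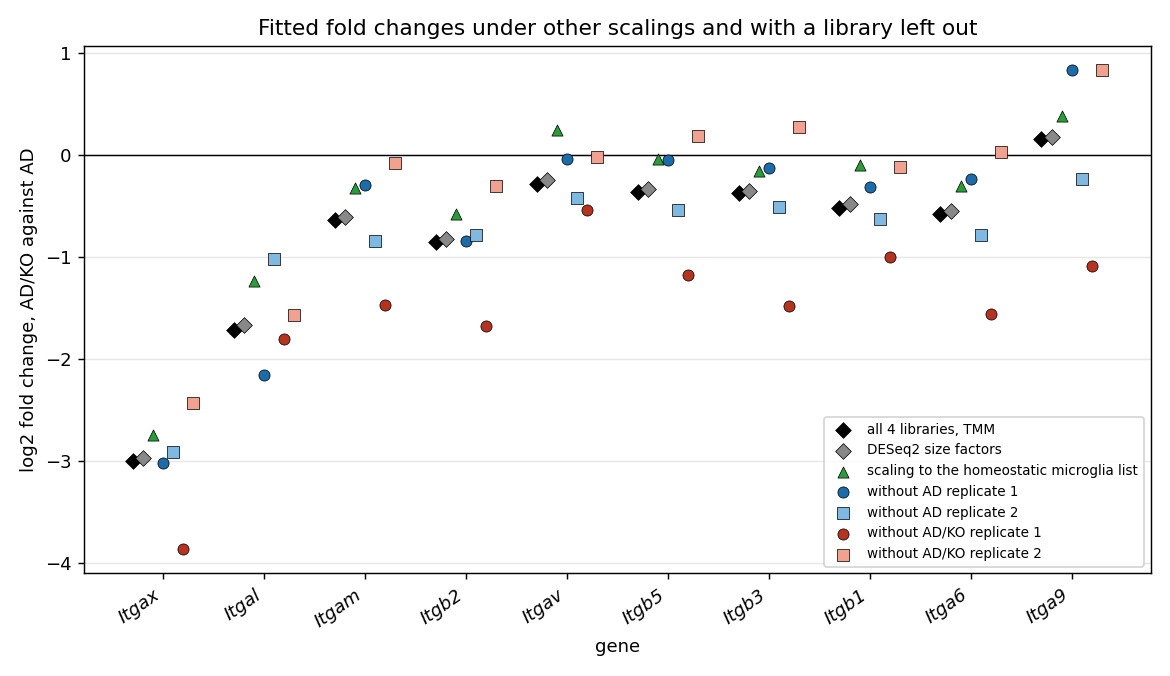
Fitted log2 fold change (AD/KO against AD, y axis) of each chain with all 4 libraries, under another size factor, scaled to homeostatic microglia markers and with each library left out. Itgax stays between −3.87 and −2.44 in the settings plotted, Itgal reaches −1.03 at its highest, and Itgav, Itgb5, Itgb3, Itga6 and Itga9 have values on both sides of 0.

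The mouse genome encodes 17 further integrin chains in the list used, of which 16 were tested (Itgb6 had no read in any library). After Benjamini-Hochberg adjustment over all genes (edgeR, quasi-likelihood), 0 of the 16 passed in either direction, as did 0.0% of all genes tested. At an unadjusted p under 0.05, 2 of the 16 (Itga4 and Itgb7) were lower in AD/KO, where 2.3% of all genes were, and 0 were higher, where 2.7% were. The median log2 fold change of the 16 was −0.064. Itga4, whose product pairs with beta 1 or beta 7 and binds VCAM-1 on vessels, stood at 43.3 and 61.8 CPM in AD and at 17.3 and 17.6 CPM in AD/KO. Its log2 fold change was −1.59 (SE 0.32, adjusted p = 0.680, edgeR quasi-likelihood). Itgb7, its leukocyte partner chain, stood at 14.8 and 15.2 CPM in AD and at 7.66 and 5.92 CPM in AD/KO, which gave a log2 fold change of −1.15 (SE 0.36, adjusted p = 0.680, edgeR quasi-likelihood). Both were lower in both AD/KO libraries, as 8 of the 10 monocyte markers, 7 of the 10 B cell markers and 21.7% of all genes tested were. The part of these cells was not tested.

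Relative to Itgam, neither gap remained free of overlap. Itga4 had 3.30 and 7.29 reads per 100 Itgam reads in AD and 1.71 and 4.71 in AD/KO. Itgb7 had 1.13 and 1.80 in AD and 0.757 and 1.58 in AD/KO. Itga5, the alpha chain of the fibronectin receptor, stood at 45.9 and 41.1 CPM in AD and at 33.7 and 22.7 CPM in AD/KO, with a log2 fold change of −0.62 (SE 0.32). Itgae, which pairs with beta 7 and binds E-cadherin, stood at 28.3, 13.8, 23.6 and 5.81 CPM and overlapped between the groups. Itgb2l, a beta 2-like gene of neutrophils, stood at 22.4 CPM in AD replicate 2 and at 1.60 to 3.85 CPM in the other libraries, as the neutrophil markers did.

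Without overlap, AD/KO lay below AD in 4 of the 16 tested chains (Itga4, Itga5, Itgad and Itgb7), where 21.7% of all genes did. It lay above in 2 of the 16, Itgb8 and Itga8, where 20.3% of all genes did. Itgb8, which pairs with alpha V and activates latent TGF-beta, stood at 11.7 and 26.3 CPM in AD and at 30.0 and 76.0 CPM in AD/KO. Its log2 fold change was 1.48 (SE 0.63, adjusted p = 0.680, edgeR quasi-likelihood). The astrocyte sum ran in the same order over the 4 libraries, and so did the sum of 10 oligodendrocyte markers (1670, 2696, 3977 and 8691 CPM). Itga8 stood at 1.60 and 4.61 CPM in AD and at 5.42 and 12.9 CPM in AD/KO. Of the laminin receptor chains, Itga3 stood at 5.01, 19.8, 15.3 and 42.2 CPM and Itga7 at 7.04, 48.9, 23.6 and 73.6 CPM, and both overlapped between the groups. The collagen receptor chains Itga10 (5.88, 8.11, 7.77 and 15.4 CPM) and Itga11 (3.41, 5.59, 5.11 and 9.23 CPM) overlapped too. Itgb4, the partner of alpha 6 in epithelia, stood at 24.6, 44.0, 25.9 and 30.0 CPM. The part of astrocytes and other brain cells in these values was not tested. Exons of Itga4, Itga7, Itga8, Itgb4 and Itgad overlap a gene on the other strand, and the use of strand in counting is not given in the sources used here.

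**Figure D4:**
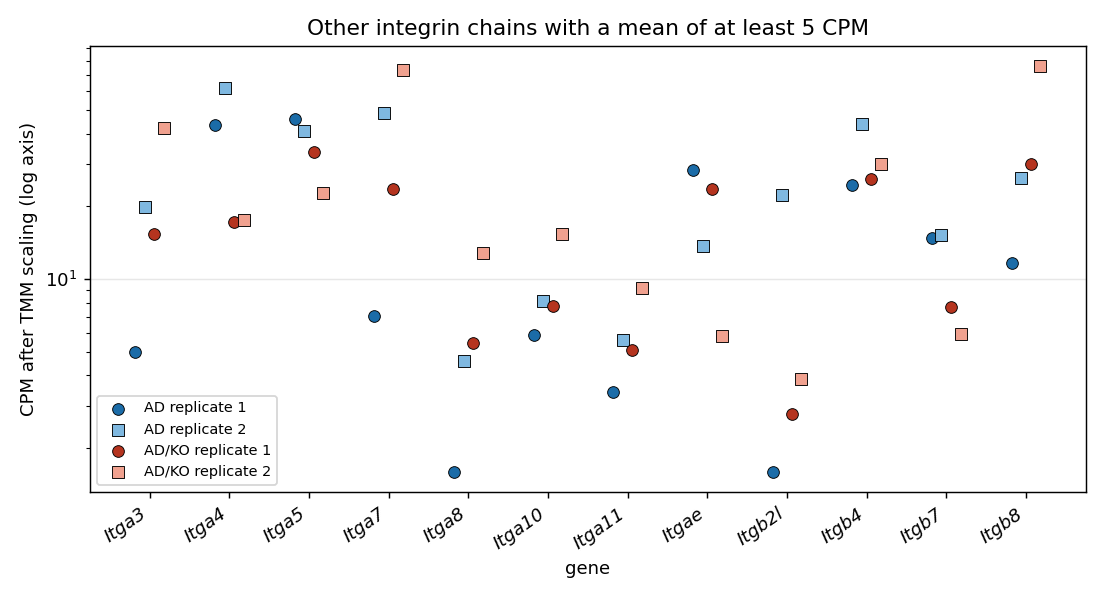
CPM (log axis) of the 12 further integrin chains with a mean of at least 5 CPM, by library, with AD in blue and AD/KO in red. Itga4 (17.3 and 17.6 CPM in AD/KO), Itga5 and Itgb7 lie below both AD libraries, Itgb8 and Itga8 lie above, and Itgb2l is high in AD replicate 2 at 22.4 CPM.

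Of 37 tested genes for the proteins that switch integrins on or link them to actin, 0 passed the adjusted threshold (edgeR quasi-likelihood, Benjamini-Hochberg), and 1 (Fgr, lower) had an unadjusted p under 0.05, where 2.3% of all genes were lower. The median log2 fold change was −0.17, and AD/KO lay below AD without overlap for 13 of the 37 genes and above for 1, against the 21.7% and 20.3% of all genes given above. Fgr, a Src-family kinase of myeloid cells that acts downstream of beta 2 integrins, stood at 34.2 and 60.7 CPM in AD and at 13.5 and 9.33 CPM in AD/KO, which gave a log2 fold change of −2.05 (SE 0.43). Fyb, an adaptor that links immune receptors to integrin activation, stood at 501 and 306 CPM and at 280 and 122 CPM, with a narrow gap between the groups. Lims1 (PINCH-1, which binds integrin-linked kinase) stood at 203 and 184 CPM and at 145 and 61.6 CPM. Src, the ubiquitous kinase, was the 1 gene higher in both AD/KO libraries, with 73.4 and 77.8 CPM in AD and 110 and 151 CPM in AD/KO. The adjusted p of each of these 4 was 0.680 (edgeR quasi-likelihood, Benjamini-Hochberg).

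Of 29 tested ligand genes, 0 passed the adjusted threshold in the same edgeR test, 5 were higher and 2 lower at an unadjusted p under 0.05 (2.7% and 2.3% of all genes), and the median log2 fold change was 0.34. Without overlap, 9 were higher and 4 lower (20.3% and 21.7% of all genes), and the furthest 3 in each direction are described. Spp1 (osteopontin, bound by alpha V and alpha 9 integrins) stood at 11.7 and 9.59 CPM in AD and at 1.20 and 2.44 CPM in AD/KO. C3, whose fragment iC3b is the ligand of complement receptors 3 and 4, stood at 26.5 and 164 CPM and at 20.6 and 24.4 CPM, with the high value in AD replicate 2, and Fn1 (fibronectin, also 1 of the 10 monocyte markers) stood at 103 and 151 CPM and at 31.5 and 53.9 CPM. The log2 fold changes were −2.54 (SE 0.55) for Spp1, −2.08 (SE 0.87) for C3 and −1.57 (SE 0.41) for Fn1. Higher in both AD/KO libraries were Col4a1 (type IV collagen of vessel basement membranes, 8.93 and 27.0 CPM, then 47.0 and 136 CPM), Icam5 (a neuronal ICAM that binds LFA-1, 11 and 26.3 CPM, then 43.5 and 128 CPM) and Tnc (tenascin-C, 0.653 and 3.57 CPM, then 4.64 and 11.6 CPM). Neuron markers (10 genes) summed to 369 and 1243 CPM in AD and to 925 and 2912 CPM in AD/KO. Oligodendrocyte markers (10 genes) summed to 1670 and 2696 CPM in AD and to 3977 and 8691 CPM in AD/KO. Most of that sum was Mbp (910, 1324, 2504 and 5620 CPM) and Mobp (348, 524, 779 and 2002 CPM). For 4 of the 10 AD/KO lay above AD without overlap (20.3% of all genes) and for 0 below (21.7%). Mag (128, 290, 168 and 156 CPM) was among those that overlapped. Endothelial and mural markers (10 genes) summed to 61.9 and 84.0 CPM in AD and to 69.9 and 120 CPM in AD/KO. The part of these cells in the ligand values was not tested. The adjusted p of each of these 6 was 0.680 (edgeR quasi-likelihood, Benjamini-Hochberg).

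The genes whose levels across the 4 libraries were most like those of Itgax were sought among 12197 other protein-coding genes with a mean of at least 5 CPM, by the root mean square difference of log2 CPM centred on each gene's mean. The nearest 6 were Hcar2 (0.20), Ccl3 (0.22), Ccl4 (0.24), Lpl (0.28), Tnfsf8 (0.29) and Olfr111 (0.37). Hcar2, a receptor for ketone bodies and niacin, stood at 22.7 and 21.7 CPM in AD and at 4.90 and 1.95 CPM in AD/KO. The chemokine gene Ccl3 stood at 18.1, 22.1, 5.11 and 1.36 CPM and its neighbour in function Ccl4 at 13.9, 13.8, 3.49 and 1.19 CPM. Lpl, the lipoprotein lipase gene, stood at 83.8, 80.8, 12.5 and 7.81 CPM, close to the levels of Itgax itself. Tnfsf8, the CD30 ligand gene, stood at 18.4, 15.4, 2.55 and 1.52 CPM, and the olfactory receptor gene Olfr111 at 75.1, 67.7, 21.4 and 3.91 CPM. No integrin chain was among them. The nearest of the other 9 was Itgal, in place 125 (0.95), then Itgb2 in place 279 (1.07) and Itgam in place 781 (1.22). With only 4 libraries this is a description of shape and not a measure of a shared cause.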

How the data were processed

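The authors deposited 1 table of raw read counts per gene symbol for each of the 4 libraries (2 AD, 2 AD/KO), not normalized. The submitters' processing notes name HISAT2, SAMtools, featureCounts, Subread, DESeq2 1.30.0 and the build mm10. Settings, annotation, use of strand and handling of multi-mapped reads are not given in the sources used here. Per table, 49993 genes had a count, and 11 broken lines had none, which left out Bag6, Huwe1, Mycbp2 and Neb. All 49993 symbols matched RefSeq for GRCm38.p6, the source of coordinates and promoters. Exon lengths came from GENCODE M21, and 0 columns lacked a sample. Libraries were grouped by the submitters' titles.

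Depth ran from 13102622 to 19810076 reads. Reads carry no molecular identifiers, so intervals cover counting error only. Counts were fitted across all genes with edgeR 4.0.16 in R 4.3.3 (filterByExpr at its settings of 10 reads and 15 reads in total, TMM scaling, quasi-likelihood F-test without covariates, Benjamini-Hochberg over 21439 genes, threshold 0.05). The procedure was tested on simulated data. CPM uses TMM-scaled library sizes, and log2 CPM for the likeness to Itgax adds a prior count of 2.

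The members, lists and tests were chosen with earlier results of these data known. The genes named were all 10 members, the other chains with a mean of at least 5 CPM, the 3 highest and 3 lowest activators and ligands (mean of at least 5 CPM, groups not overlapping), the tested genes within 100 kb of Itgax and the 6 nearest profiles. Others were named after their values were seen. In GENCODE M21, Itgam matched Gm49368 at 99.9% identity over 3454 bases, and stretches of Itga6 matched 7 other genes at 95.9% or more. Gm49368 overlaps exons of Itgam on the same strand and Gm13684 overlaps those of Itgav on the other strand, and neither is among the genes with a count. Itgav, Itgb2 and Itgb5 matched 1 other gene each, and Itgax, Itgal, Itgb1, Itga9 and Itgb3 matched 0 (BLAST, at least 95% over at least 100 bases).

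Alternatives were DESeq2 1.42.0, DESeq2 size factors in edgeR, no filter, a mean of at least 1 CPM, the replicate number as a block, scaling to the homeostatic list and leaving out each library.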

Additional observations from a re-analysis of the deposited data

How the results depend on the processing

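The number of genes past an adjusted p of 0.05 was 0 with edgeR (quasi-likelihood), where 1072 had an unadjusted p under 0.05, and 86 with DESeq2 (49 lower, 37 higher, 0.435% of 19776 genes with an adjusted p). It ran from 0 to 524 with a library left out, being 48 without AD replicate 1, 524 without AD replicate 2 and 0 without either AD/KO library, where the lone library of a group is assumed to vary like the others. The labels do not tie same-numbered libraries to each other, and their deviations from the group means had a correlation of 0.68 across genes. With the replicate block, 4333 genes passed (1455 lower, 2878 higher, 20.2% of 21439), with 7 of 16 other chains, 12 of 37 activators and adaptors, and 12 of 29 ligands. DESeq2 called 1 of the ligands (Spp1). With a library left out, calls ran from 0 to 1 among the other chains and from 0 to 2 among the ligands. The cause of these changes was not tested.

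The log2 fold change of Itgax was −3.0 and ran from −3.87 to −2.44 with a library left out, from −3.15 (replicate block) to −2.75 (scaling to the homeostatic list) in the other settings. The members' median ran from −1.48 to −0.052 with a library left out, and from −0.69 to −0.24 otherwise. The direction reversed for Itgb5 (−0.36 to 0.19), Itga6 (−0.58 to 0.030) and Itgb3 (−0.38 to 0.27) without AD/KO replicate 2, for Itgav with scaling to the homeostatic list (0.24), and for Itga9 with the replicate block (−0.046), without AD replicate 2 (−0.24) and without AD/KO replicate 1 (−1.09). With a library left out, Itgb5 ran from −1.18 to 0.19, Itga6 from −1.56 to 0.030, Itgb3 from −1.48 to 0.27 and Itga9 from −1.09 to 0.83. The number of members below AD in both AD/KO libraries, alternatives chosen after seeing the data, was 3, from 3 to 10 with a library left out and 5 with scaling to the homeostatic list. Among the 157 alternative values, 128 had the same direction and stayed within 1 SD or 1.5 times, 22 moved further and 7 reversed. At 84 reads, the lowest Itgax count, precision was limited by counting (95% exact Poisson interval 67.0 to 104 reads).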
